A study of Homo sapiens with 6 samples.

Results

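The genes described here are 40 nuclear-encoded subunits of the mitochondrial respiratory chain beyond complex I and of ATP synthase, out of 20263 genes in the deposited table. They were taken from a fixed list of symbols: 4 subunits of complex II, 9 of complex III, cytochrome c, 11 of complex IV and 15 of ATP synthase (complex V). All 40 were found and all 40 passed the expression filter.

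Cells of AsPC-1, an established line from a human pancreatic adenocarcinoma, were grown in RPMI1640 with fetal bovine serum and transfected through jetPRIME with small interfering RNA (siRNA). The group siControl received a negative control siRNA, and the groups HMOX1si1 and HMOX1si2 each received a different siRNA against HMOX1. Each group had 2 libraries of messenger RNA, all from the same line, and the study asked how HMOX1 might act on proliferation. The sources used here do not give the siRNA sequences, their doses or the time between transfection and harvest. Whether the libraries of a group came from separate cultures is not said in the labels. The spread behind the p-values is therefore that between these libraries and may be technical. In RNA from whole cultures, fewer cells with a transcript and less of it per cell cannot be told apart.

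HMOX1 encodes heme oxygenase-1, which cleaves heme and releases iron, carbon monoxide and biliverdin. Heme and iron are also cofactors of the respiratory chain. Complex II (succinate dehydrogenase) oxidises succinate and passes electrons to ubiquinone through iron-sulfur clusters, and its membrane anchors hold a heme b. Complex III passes them on to cytochrome c through heme b, a Rieske iron-sulfur cluster and heme c. Complex IV (cytochrome c oxidase) hands them to oxygen through heme a and copper. ATP synthase holds no heme and makes ATP from the proton gradient. Apart from complex II, each of these complexes joins nuclear-encoded subunits to at least 1 encoded by mitochondrial DNA.

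Total counts were 36144330 and 45068660 in siControl replicates 1 and 2, and between 40737819 and 44139523 in the knockdown libraries. The members had between 816 and 43475 counts per library. HMOX1 itself had 328 and 378 counts with siControl, 102 and 112 with HMOX1si1 and 55 and 53 with HMOX1si2, which the fit put at 29.8% of control with HMOX1si1 and at 13.9% with HMOX1si2. Its fold change was past the threshold with each siRNA (edgeR adjusted p = 0.00618 and 0.00951), and without siControl replicate 2 neither call remained, at log2 fold changes of −1.79 and −2.89. Without siControl replicate 1 the call with HMOX1si2 was also lost, at −2.81. Replicates were further apart than counting error allows (chi-square over its degrees of freedom 39.4 in siControl, 50.4 in HMOX1si1 and 87.6 in HMOX1si2). Among counts from 1 to 20, 66.5% to 69.3% were even in each library, and if both mates of a fragment were counted these ratios are overstated. Of the epithelial and pancreatic ductal markers, 7 of 7 were measured, with summed levels of 12994 and 14741 CPM (counts scaled to library size) in siControl, 9366 and 9122 in HMOX1si1 and 12917 and 13412 in HMOX1si2. The HMOX1si1 libraries were lowest in this sum, and KRT8, KRT18 and KRT19, keratins of simple epithelia, were lower with that siRNA (edgeR adjusted p = 0.0155, 0.0461 and 0.0112). Fibroblast markers summed to between 78.8 and 125 CPM, most of it LUM, while COL1A2 and COL3A1 failed the filter. LUM, a matrix proteoglycan, was lower on average (edgeR adjusted p = 0.0244). The blood cell markers CD14 and CD68 passed the filter and PTPRC, CD3E, HBB and CD79A did not, and their sum was 97.4 and 103 CPM in siControl, 138 to 169 in HMOX1si1 and 105 to 138 in HMOX1si2. The higher sum came from CD68, which did not pass the threshold with HMOX1si1 (log2 fold change 0.71, edgeR adjusted p = 0.0569), while CD14 was lower with that siRNA (edgeR adjusted p = 0.0325). These marker calls were lost without either siControl library and without either HMOX1si1 library, except that of KRT19, which remained without siControl replicate 1, and that of KRT18 was also lost without either HMOX1si2 library. Endothelial markers summed to at most 1.55 CPM and acinar and endocrine markers to at most 0.383. The part of these markers in the results on the subunits was not tested.

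Transcripts of the subunits of complexes II to V lay somewhat below control after transfection with the HMOX1 siRNAs. The average of both siRNAs against siControl put all 40 members below control, with a median log2 fold change of −0.37 where the median over all 13769 genes tested was −0.00. Few single genes passed the test: 5 members were lower on average and none was higher, against 4.93% of all genes tested that were lower and 5.16% that were higher. The 5 were UQCR10 and UQCR11, small subunits of complex III, COX7B and COX7C, small subunits of complex IV, and ATP5MC1, which encodes a copy of the c subunit that forms the rotating ring of ATP synthase. At an unadjusted p under 0.05 there were 27 members, against 15.7% of all genes that were lower at that p, and DESeq2 called 23, against 9.25% of all genes lower. All of these members were lower. No member's call on average remained without siControl replicate 1, without siControl replicate 2 or without HMOX1si1 replicate 2. Without either siControl library, no gene tested in that fit was called on average with edgeR. COX7C alone was called without HMOX1si1 replicate 1, UQCR11 alone without HMOX1si2 replicate 1, and 16 members without HMOX1si2 replicate 2. The median fold change of the members lay between −0.47 and −0.31 over the fits that left out 1 library.

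Most members did not overlap between knockdown and control. In 31 of 40, all 4 knockdown libraries lay below both control libraries, against 18.2% of all genes tested, and in none did they lie above. The HMOX1si1 libraries lay below both controls in 36 members (31.9% of all genes) and the HMOX1si2 libraries in 31 (28.1% of all genes). The plot of subunits by library shows where single libraries fell.

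**Figure D1:**
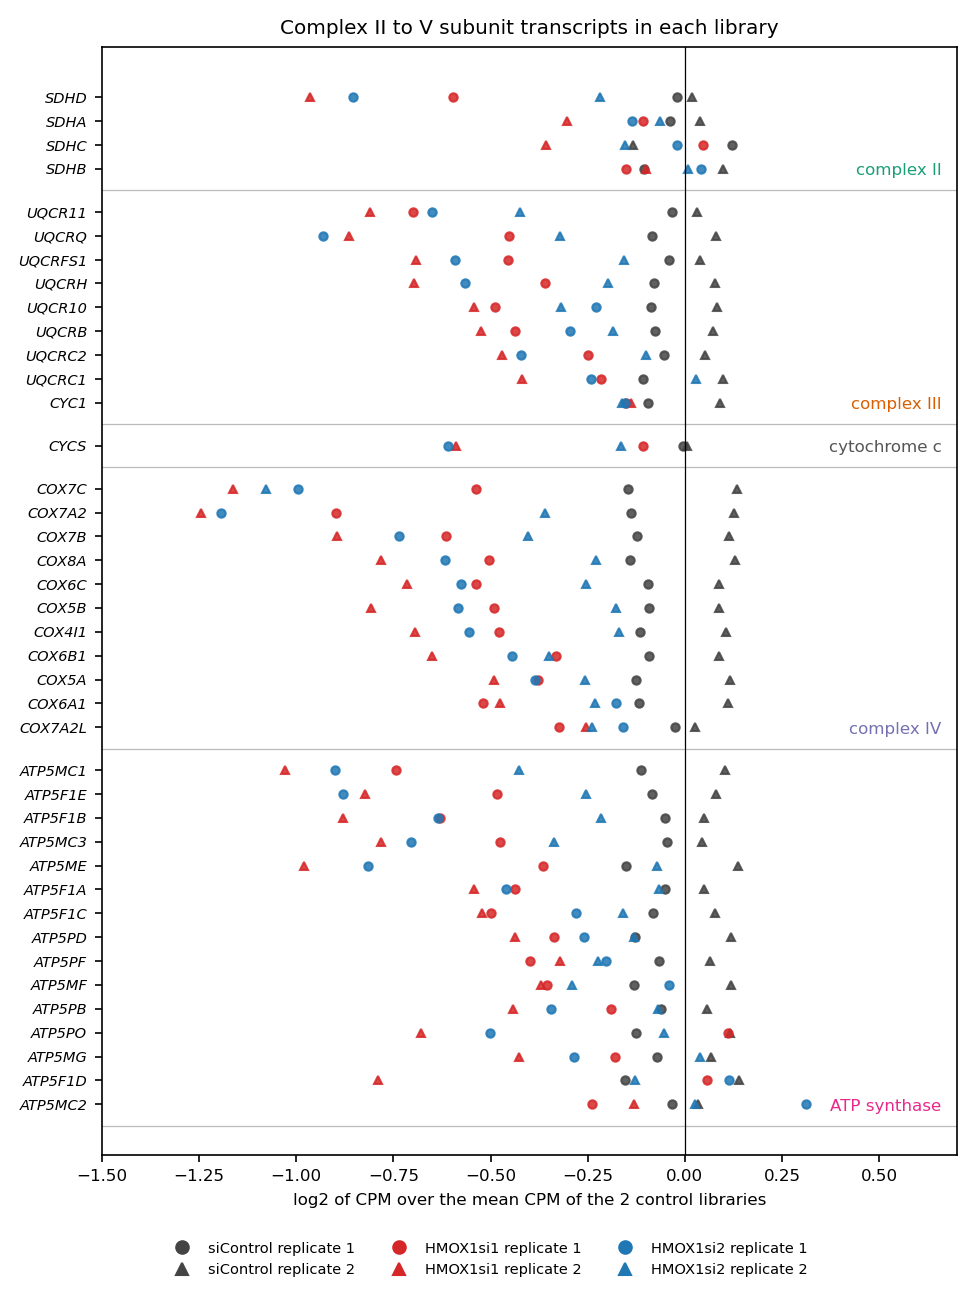
Each row is 1 of the 40 subunit genes, grouped by complex; the x axis is the log2 of its CPM over the mean CPM of the 2 control libraries, with 1 mark per library. All 4 knockdown marks lie left of both control marks in 31 rows, among them all 11 rows of complex IV.

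In complex III, UQCR11 had the lowest adjusted p of the members. Its levels were 100 and 105 CPM in siControl, 63.3 and 58.7 in HMOX1si1 and 65.4 and 76.5 in HMOX1si2. All 4 knockdown libraries were below the controls, and HMOX1si2 replicate 2 was the highest of the 4. The average log2 fold change was −0.64 (SE 0.09, edgeR adjusted p = 0.0197), or 64.0% of control, and the gene was past the threshold with HMOX1si1 (−0.75, edgeR adjusted p = 0.0173) and with HMOX1si2 (−0.53, edgeR adjusted p = 0.0498). UQCR10 had 67.6 and 76.0 CPM in siControl, 51.2 and 49.3 in HMOX1si1 and 61.3 and 57.5 in HMOX1si2. The HMOX1si2 libraries lay between the other groups without overlap. Its average fold change was −0.39 on the log2 scale (SE 0.09, edgeR adjusted p = 0.0436). The call of UQCR10 was lost with correction for exonic length (−0.13, edgeR adjusted p = 0.368). It was also lost with correction by transcript length (−0.15, edgeR adjusted p = 0.320).

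In complex IV, COX7C showed the largest average fold change of all members. It had 135 and 164 CPM in siControl, 103 and 66.7 in HMOX1si1 and 74.8 and 70.7 in HMOX1si2. HMOX1si1 replicate 1 was the highest knockdown library and still below both controls. The average log2 fold change was −0.93 (SE 0.18, edgeR adjusted p = 0.0330), or 52.6% of control, and with HMOX1si2 alone it was −1.04 (SE 0.21, edgeR adjusted p = 0.0494). COX7B had 176 and 208 CPM in siControl, 125 and 103 in HMOX1si1 and 115 and 145 in HMOX1si2, so that no knockdown library reached a control. Its average fold change was −0.65 (SE 0.14, edgeR adjusted p = 0.0410).

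In ATP synthase, ATP5MC1 had 38.5 and 44.7 CPM in siControl, 24.9 and 20.4 in HMOX1si1 and 22.3 and 31.0 in HMOX1si2. The groups of knockdown and control libraries did not overlap. The average log2 fold change was −0.76 (SE 0.16, edgeR adjusted p = 0.0412), or 59.0% of control. The c subunit is also encoded by ATP5MC2 and ATP5MC3, whose mature proteins are the same. ATP5MC2 had 307 and 322 CPM in siControl, 266 and 287 in HMOX1si1 and 390 and 320 in HMOX1si2, with an average log2 fold change of −0.00 (SE 0.10) that took the other sign under scaling by library totals. ATP5MC3 had 233 and 248 CPM in siControl and 140 to 190 in the knockdown libraries, and did not pass the threshold on average (−0.56, edgeR adjusted p = 0.0538).

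Since these 5 genes carry the calls on average, the bases just upstream of each are shown to compare what their promoters hold. The stretches run 150 bases up to the gene start of GENCODE 29, 5′ to 3′ on the gene's own strand, and come from RefSeq's promoter windows (GRCh38). Capitals mark matches, on either strand, to 4 short core motifs of factors known from promoters of housekeeping and respiratory genes: NRF1 (GCGCANGCG), the ETS family that includes GABPA (CCGGAAG), YY1 (AANATGGC) and ZNF143 (ACANNTCCC). UQCR10 lies at chr22:29767369-29770413 (plus strand), UQCR11 at chr19:1597172-1605490 (minus), COX7B at chrX:77899438-77907373 (plus), COX7C at chr5:86617904-86620962 (plus) and ATP5MC1 at chr17:48892765-48895871 (plus). The stretches shown are chr22:29767219-29767368, chr19:1605491-1605640, chrX:77899288-77899437, chr5:86617754-86617903 and chr17:48892615-48892764, in the same order.
UQCR10: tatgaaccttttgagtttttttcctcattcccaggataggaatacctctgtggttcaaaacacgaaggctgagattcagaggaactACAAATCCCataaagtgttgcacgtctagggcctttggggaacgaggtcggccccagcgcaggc
UQCR11: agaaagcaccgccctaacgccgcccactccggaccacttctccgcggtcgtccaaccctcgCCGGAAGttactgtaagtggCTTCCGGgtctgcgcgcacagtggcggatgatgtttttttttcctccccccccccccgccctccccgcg
COX7B: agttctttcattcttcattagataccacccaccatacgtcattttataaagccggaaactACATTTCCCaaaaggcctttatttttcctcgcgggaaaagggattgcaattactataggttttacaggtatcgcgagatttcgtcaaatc
COX7C: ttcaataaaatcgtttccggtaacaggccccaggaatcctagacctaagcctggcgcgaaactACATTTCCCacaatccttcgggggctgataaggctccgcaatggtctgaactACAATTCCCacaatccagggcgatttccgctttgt
ATP5MC1: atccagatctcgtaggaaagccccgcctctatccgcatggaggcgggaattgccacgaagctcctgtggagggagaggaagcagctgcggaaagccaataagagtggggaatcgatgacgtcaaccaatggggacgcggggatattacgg

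The ZNF143 core stood in the stretches of UQCR10 (ACAAATCCC, starting 64 bases before the gene start), COX7B (ACATTTCCC, 90 bases) and COX7C (ACATTTCCC at 87 bases and ACAATTCCC at 35). UQCR11 held the ETS core once on its own strand (CCGGAAG, 89 bases) and once on the other (CTTCCGG, 69 bases), and the stretch of ATP5MC1 matched none of the 4. A window from 250 bases before to 50 after the start was found for 32 members and 27305 genes. These genes, called all genes below for the motifs, were not filtered by expression, whereas all members passed the filter. In these windows UQCR10 also held the NRF1 and YY1 cores, UQCR11 the NRF1 core and COX7B the YY1 core. COX7C and ATP5MC1 held no further core there. The NRF1 core stood in 12 of the 32 members (37.5%) and in 9.02% of all genes, and the ETS core in 15 members (46.9%) and 12.2% of all genes. The YY1 core stood in 13 members (40.6%; 7.97% of all genes) and the ZNF143 core in 9 (28.1%; 7.86% of all genes). The motifs were chosen after the fold changes were known, and a match describes letters, not binding. The median average fold change was −0.36 for members with the NRF1 core and −0.44 for the 20 without it, and −0.39 with and −0.38 without the ZNF143 core. It was −0.44 with and −0.36 without the ETS core, and −0.35 with and −0.44 without the YY1 core.

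By complex and without correction for length, the median difference was smallest in complex II. None of its 4 members passed the edgeR test on average (1 at an unadjusted p under 0.05, and DESeq2 called SDHD), and the median log2 fold change was −0.13. SDHD, a membrane anchor that helps to hold heme b, had 229 and 236 CPM in siControl, 154 and 119 in HMOX1si1 and 129 and 200 in HMOX1si2. All knockdown libraries were lower than both controls, with HMOX1si2 replicate 2 nearest to them (−0.64 on average, SE 0.19, edgeR adjusted p = 0.0861). The other anchor, SDHC, had 136 and 114 CPM in siControl, 129 and 97.5 in HMOX1si1 and 123 and 112 in HMOX1si2, and the groups overlapped (−0.11, SE 0.14). SDHB, the iron-sulfur subunit, had 81.2 and 93.4 CPM in siControl and between 78.5 and 89.8 in the knockdown libraries, again with overlap (−0.05, SE 0.09). SDHA, the flavoprotein that binds succinate, had 376 and 397 CPM in siControl and 313 to 370 in the knockdown libraries. With fold changes corrected for exonic length, the averages were −0.24 for SDHA, 0.060 for SDHB, −0.27 for SDHC and −0.555 for SDHD. The order of the complexes given here is that of the uncorrected values.

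Complex III had 9 members with average log2 fold changes between −0.64 and −0.15 and a median of −0.39. UQCR10 and UQCR11 were past the threshold, against 4.93% of all genes that were lower. An unadjusted p under 0.05 was found in 7 of 9, against 15.7% of all genes that were lower at that p. In all knockdown libraries 8 of 9 lay below both controls, against 18.2% of all genes. CYC1, cytochrome c1 and the heme c subunit, had the smallest difference of the 9. Its levels were 257 and 293 CPM in siControl, 247 and 250 in HMOX1si1 and 247 and 246 in HMOX1si2, and the 4 knockdown libraries lay closer to each other than the controls did (−0.15, SE 0.08, edgeR adjusted p = 0.271). UQCRFS1, the Rieske iron-sulfur protein, had 87.7 and 92.8 CPM in siControl, 65.9 and 55.9 in HMOX1si1 and 59.9 and 81.0 in HMOX1si2 (−0.46, SE 0.14, edgeR adjusted p = 0.0895). UQCRB, which lies near the ubiquinone site, had 103 and 115 CPM in siControl and 75.7 to 95.9 in the knockdown libraries, and was lower with HMOX1si1 (−0.48, edgeR adjusted p = 0.0387). CYCS, the soluble carrier cytochrome c, had 105 and 105 CPM in siControl, 97.4 and 69.8 in HMOX1si1 and 68.8 and 93.7 in HMOX1si2. The libraries of each siRNA were further apart than the higher of each pair was from control (−0.35 on average, SE 0.17, edgeR adjusted p = 0.229), and CYCS has 40 annotated pseudogenes whose reads could be shared with it.

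In complex IV, all 11 members lay below both controls in all 4 knockdown libraries, against 18.2% of all genes. All 11 had an unadjusted p under 0.05 on average, against 15.7% of all genes that were lower at that p. The median log2 fold change was −0.50, from −0.93 for COX7C to −0.24 for COX7A2L, a relative of COX7A that takes part in joining complexes III and IV. COX7A2L had 64.1 and 66.4 CPM in siControl, 52.1 and 54.7 in HMOX1si1 and 58.5 and 55.3 in HMOX1si2. Only COX7B and COX7C were past the edgeR threshold on average (4.93% of all genes lower), while DESeq2 called 10 of 11 (9.25% of all genes lower). COX7A2, chosen here after its values were seen, came close to COX7C in size without passing: 48.2 and 57.8 CPM in siControl, 28.5 and 22.4 in HMOX1si1 and 23.2 and 41.3 in HMOX1si2 (−0.89, SE 0.24, edgeR adjusted p = 0.0663). Its HMOX1si2 libraries differed by more than those of HMOX1si1. With fold changes corrected for exonic length, the 11 ran from −0.78 for COX7C to −0.13 for COX6A1, with a middle value of −0.30.

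ATP synthase had 15 members with a median average log2 fold change of −0.29. In all knockdown libraries 9 of 15 lay below both controls, against 18.2% of all genes. ATP5F1B, the catalytic beta subunit and the most abundant member, had 914 and 980 CPM in siControl, 612 and 515 in HMOX1si1 and 610 and 816 in HMOX1si2. It was lower with HMOX1si1 (−0.75, SE 0.16, edgeR adjusted p = 0.0430) and not past the threshold on average (−0.58, edgeR adjusted p = 0.0520). ATP5F1C, the gamma subunit of the central stalk, had 131 and 146 CPM in siControl, 97.9 and 96.3 in HMOX1si1 and 114 and 124 in HMOX1si2, and was lower with HMOX1si1 (−0.51, edgeR adjusted p = 0.0331). ATP5F1D and ATP5PO, also chosen after their values were seen, overlapped the controls: in each, HMOX1si1 replicate 1 stood above replicate 2, at 68.0 against 37.8 CPM for ATP5F1D and at 99.2 against 57.5 for ATP5PO.

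The members of the heme-containing complexes II to IV with cytochrome c numbered 25, of which 4 were past the threshold on average, with a median log2 fold change of −0.44, against 1 of 15 and −0.29 for ATP synthase. Of all genes tested, 4.93% were called lower. With fold changes corrected for exonic length the 2 medians were −0.30 and −0.23. With the correction by transcript length, chosen after the data were seen, they were −0.17 and −0.16. Whether these medians differ was not tested. The members that bind heme themselves (SDHC, SDHD, CYC1 and CYCS) had a median of −0.25, and none of the 4 passed the edgeR test (1 at an unadjusted p under 0.05, and DESeq2 called SDHD). Neither iron-sulfur member passed it (UQCRFS1 had an unadjusted p under 0.05 and was called by DESeq2).

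More members were past the threshold with HMOX1si1 than with HMOX1si2, although HMOX1 was lower with HMOX1si2. With HMOX1si1, 9 members were lower and none higher (5.01% and 5.02% of all genes): UQCRB, UQCR10, UQCR11, COX6A1, COX6C, COX7B, ATP5F1B, ATP5F1C and ATP5MC1. With HMOX1si2, 2 were lower, UQCR11 and COX7C, and none higher (2.67% and 3.06% of all genes). The median log2 fold change was −0.49 with HMOX1si1, where all 40 members were below 0, and −0.30 with HMOX1si2, where 38 were. The calls with HMOX1si2 rest on adjusted p just under 0.05. For each siRNA, all the calls named here were lost without either library of that siRNA and without either siControl library. Both comparisons share the siControl libraries.

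The test of the difference itself, HMOX1si2 minus HMOX1si1, called no member with edgeR or DESeq2 (1.49% of all genes lower and 2.14% higher with edgeR). There were 3 members at an unadjusted p under 0.05, against 2842 of all 13769 genes tested. The smallest edgeR adjusted p was 0.169, for ATP5MC2. The difference was above 0 in 36 of 40 members, against 6947 of 13769 genes, with a median of 0.20 on the log2 scale. Without HMOX1si2 replicate 2 the median was 0.030 with 15 of 40 below 0, and without HMOX1si1 replicate 2 it was 0.096 with 14 below 0. Of the complex IV subunits, COX6A1, COX6C and COX7B were past the threshold with HMOX1si1 and not with HMOX1si2. COX6A1 and COX6C had 203 and 209 CPM and 52.7 and 46.6 CPM with HMOX1si1. With HMOX1si2 COX6A1 had 257 and 248 CPM and COX6C 51.3 and 64.2, against 268 and 314 and 71.6 and 81.4 in siControl. In both genes all knockdown libraries were below the controls.

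**Figure D2:**
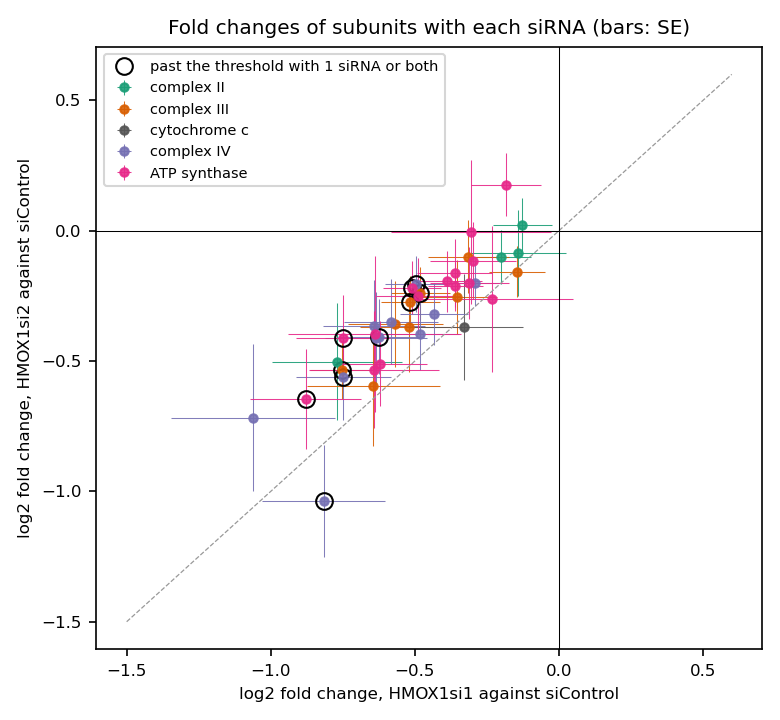
Each point is 1 of the 40 members, with its log2 fold change against siControl for HMOX1si1 on the x axis and HMOX1si2 on the y axis, bars for the SE, and circles around members past the threshold with either siRNA; the dashed line marks equal values. Most points (36 of 40) lie above the dashed line, and both axes share the siControl libraries; without HMOX1si2 replicate 2, 15 of 40 lie below it.

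Single libraries moved all complexes together, and complex I and short transcripts went in the same order. The mean log2 level of the 40 members relative to the control mean was −0.08 and 0.08 in siControl replicates 1 and 2, −0.38 and −0.62 in HMOX1si1, and −0.45 and −0.21 in HMOX1si2. Over all 1205 tested genes under 1 kb, the medians were −0.08 and 0.08, −0.22 and −0.33, and −0.28 and −0.14. The 37 complex I subunits had means of −0.34 and −0.52 in HMOX1si1 and −0.44 and −0.19 in HMOX1si2. HMOX1si1 replicate 2 was the lowest of the 6 libraries in 31 members, against 2430 of all 13769 genes tested. HMOX1si2 replicate 2 was the highest of the 4 knockdown libraries in 26 members, against 3671 of all 13769 genes. Replicate 2 was above replicate 1 in 39 of 40 members with siControl (50.5% of all genes). It was below replicate 1 in 34 with HMOX1si1 (6637 of 13769 genes) and above it in 29 with HMOX1si2 (49.0% of all genes).

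Transcripts of the mitochondrial genome did not follow this order. None of the 13 protein genes encoded there passed the threshold on average by edgeR or DESeq2 (none at an unadjusted p under 0.05), with a median log2 fold change of 0.03. Their mean log2 level relative to controls was −0.21 and 0.27 in HMOX1si1 replicates 1 and 2 and 0.34 and −0.47 in HMOX1si2. All 13 were higher in replicate 2 with HMOX1si1 (51.7% of all genes). All 13 were lower in replicate 2 with HMOX1si2 (7018 of 13769 genes). MT-CO1, the catalytic subunit of complex IV, had 19066 and 21265 CPM in siControl, 17681 and 24753 in HMOX1si1 and 24672 and 15153 in HMOX1si2, and MT-CYB, the cytochrome b of complex III, had 4253 and 5194, 4004 and 5872, and 5712 and 3168. Knockdown libraries lay on both sides of the controls for both genes. The share of counts on these genes ran from 5.10% in HMOX1si2 replicate 2 to 8.38% in HMOX1si2 replicate 1. With this share as a covariate, chosen after the data were seen, 23 members were lower on average, against 9.21% of all genes, the median log2 fold change was −0.38, and ATP5MC2 was called between the siRNAs.

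**Figure D3:**
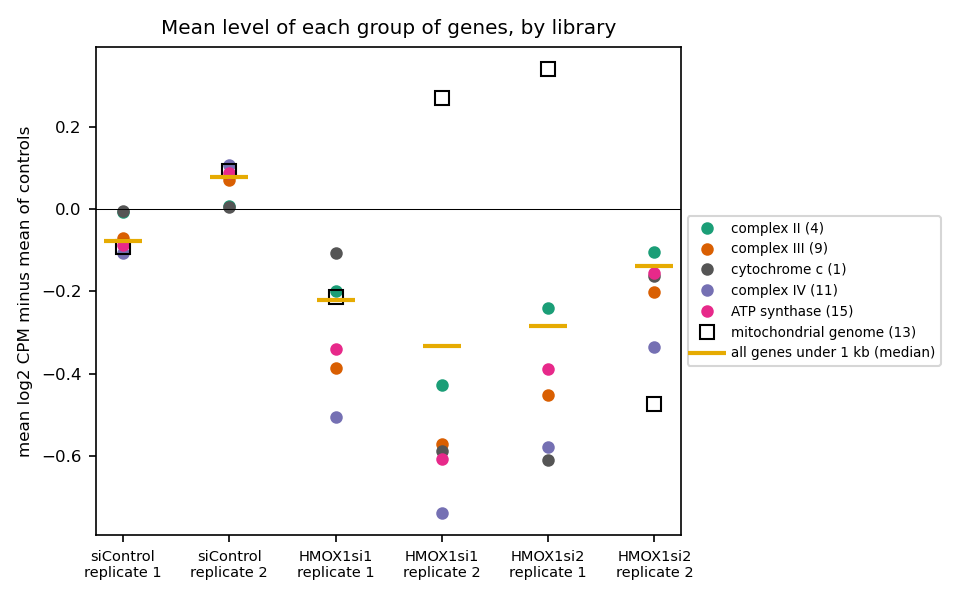
The y axis is the mean log2 CPM of a group of genes minus its mean in siControl, for each of the 6 libraries on the x axis; filled points are the complexes, open squares the 13 genes of the mitochondrial genome and orange bars the median of all genes with transcripts under 1 kb. HMOX1si1 replicate 2 and HMOX1si2 replicate 1 are low for the subunits and high for the mitochondrial genome (0.27 and 0.34). HMOX1si1 replicate 1 and HMOX1si2 replicate 2 are below control for both (−0.21 and −0.47 for the mitochondrial genome). Of the knockdown libraries, HMOX1si2 replicate 2 lies nearest to the controls in complexes II, III and IV and ATP synthase.

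The subunit transcripts are short, and short transcripts were lower as a class. The members' median spliced length was 735 bases, against 2492 over all genes tested, and 28 members were under 1 kb. Among all 1205 tested genes under 1 kb, the median average log2 fold change was −0.24, 74.9% had a fold change below 0, and 7.22% were called lower. The median was −0.10 from 1 to 2 kb, 0.02 from 2 to 4 kb and 0.15 at 4 kb or more. With fold changes corrected for exonic length of the gene, 6 members were lower on average, against 5.27% of all genes. These were UQCRB, UQCR11, COX7B, COX7C, ATP5MC1 and ATP5MC3, and the members' median was −0.26. With the length of the transcripts, an alternative chosen after the data were seen, 3 were lower (UQCR11, COX7B and ATP5MC1), against 5.22% of all genes, the median was −0.17 and 33 of 40 were below 0.

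**Figure D4:**
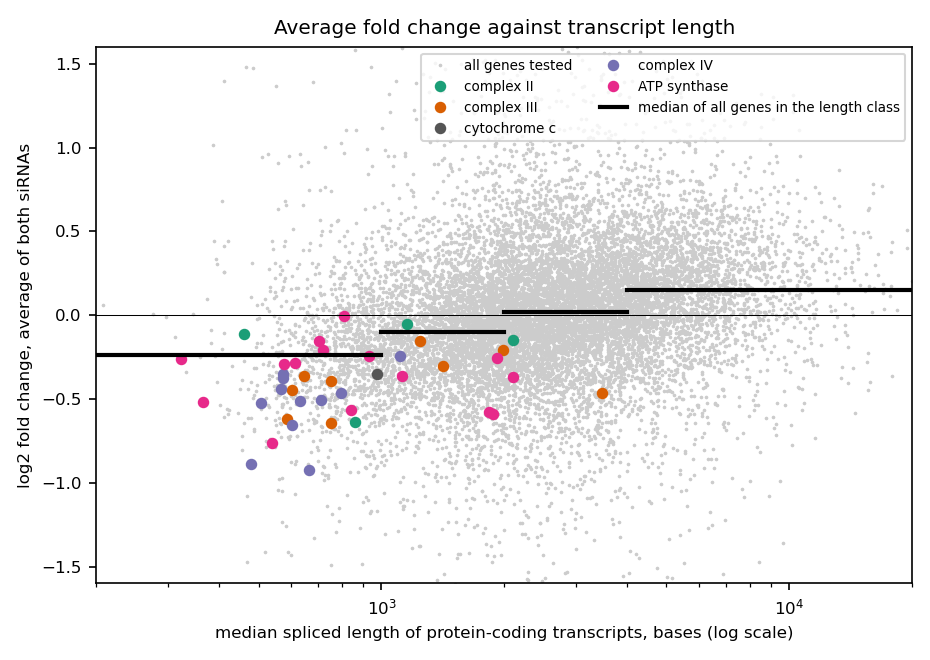
The x axis is the median spliced length of a gene's protein-coding transcripts in bases (log scale) and the y axis the log2 fold change on average of both siRNAs; grey points are all genes tested (those beyond the axes are not drawn), coloured points the 40 members and black bars the median of all genes in a length class. The bars rise from −0.24 under 1 kb to 0.15 at 4 kb or more, and most members lie at the short end, below their bar.

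Per length, the subunit transcripts spanned a 19.8-fold range in siControl. ATP5F1B stood highest at 515 CPM per kb (SD 25.3, n = 2), next to COX6A1 at 508 (SD 57.0, n = 2), which overlapped it between libraries. COX8A, a small complex IV subunit, followed at 425 (SD 55.7, n = 2). UQCRFS1 stood lowest at 26.0 (SD 1.03, n = 2), below COX7A2L at 58.7 (SD 1.52, n = 2). Of the 39 pairs of neighbours in this order, 31 overlapped between the control libraries. The median level per kb was 227 CPM in complex II, 221 in complex IV, 162 in complex III and 123 in ATP synthase.

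**Figure D5:**
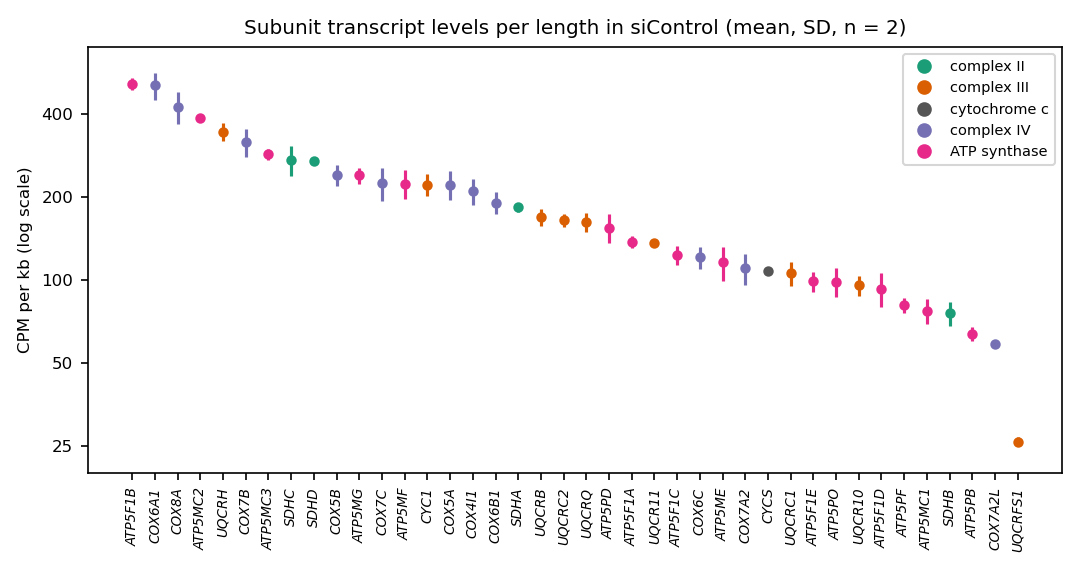
The 40 members are ordered along the x axis by their siControl level; the y axis is CPM per kb of transcript on a log scale, with points for the mean and bars for the SD of the 2 libraries. Levels run from 515 for ATP5F1B to 26.0 for UQCRFS1.

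Few genes that serve the same complexes passed the edgeR test on average, where 4.93% of all genes tested were lower and 5.16% higher. Of 25 assembly factors of complex IV, COA1, which acts early in building MT-CO1 into the complex, was lower on average: 48.9 and 48.9 CPM in siControl, 36.5 and 37.0 in HMOX1si1 and 30.8 and 37.3 in HMOX1si2 (−0.47, SE 0.10, edgeR adjusted p = 0.0410). All 4 knockdown libraries of COA1 were below both controls, and its call was lost without any 1 library other than HMOX1si2 replicate 2. The 25 had a median log2 fold change of −0.24, 18 were below 0, 10 had an unadjusted p under 0.05, and DESeq2 called 6. Of all 13769 genes tested, 50.5% were below 0, 4316 had an unadjusted p under 0.05, and DESeq2 called 2636. Of the assembly factors of complex II (4), complex III (9) and ATP synthase (5), none passed the edgeR test on average, with 1, 1 and 3 at an unadjusted p under 0.05, and DESeq2 called 0, 1 (UQCC5) and 1 (DMAC2L). Their medians were −0.20, −0.09 and −0.30. The genes that make heme a and attach heme to cytochromes (COX10, COX15 and HCCS) had a median log2 fold change of 0.07, and the 11 genes of iron-sulfur delivery 0.03, with none called on average by edgeR or DESeq2 and 1 in each list at an unadjusted p under 0.05. Of 12 tissue isoforms and further subunits, 7 were measured, and none passed the edgeR test on average (3 at an unadjusted p under 0.05, and DESeq2 called ATP5MJ).

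Of 12 nuclear regulators of mitochondrial genes, 11 were measured and TFAM, which packages and transcribes mitochondrial DNA, was lower on average. It had 48.1 and 41.3 CPM in siControl, 21.4 and 19.2 in HMOX1si1 and 32.8 and 42.3 in HMOX1si2. The HMOX1si1 libraries lay below all others, and HMOX1si2 replicate 2 lay above a control. The log2 fold change was −0.70 on average (SE 0.13, edgeR adjusted p = 0.0324) and −1.14 with HMOX1si1 (SE 0.16, edgeR adjusted p = 0.0151), and it did not pass with HMOX1si2 (−0.25, edgeR adjusted p = 0.350). Both calls were lost without either siControl library and without either HMOX1si1 library. No other regulator passed the edgeR test on average (4.93% of all genes were lower and 5.16% higher), and DESeq2 also called YY1, as higher.

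Complex I, the NADH dehydrogenase upstream of these complexes, had a like median. Of its 37 nuclear subunits listed, 4 were lower on average (NDUFB1, NDUFC2, NDUFA11 and NDUFB8) and none higher, with a median log2 fold change of −0.36. Of all genes tested, 4.93% were lower and 5.16% higher. All knockdown libraries were below both controls in 22 of 37, against 18.2% of all genes tested. NDUFB1, an accessory subunit in the membrane arm, had 18.4 and 18.8 CPM in siControl, 10.2 and 9.38 in HMOX1si1 and 11.5 and 14.7 in HMOX1si2 (−0.72, SE 0.13, edgeR adjusted p = 0.0285). Its groups did not overlap, and its call was lost without either siControl library and without either HMOX1si1 library.

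Some counts may be shared with other genes. Exonic bases overlapped another gene of the table in 15 members, among them UQCR11 and COX6A1, and 28 members have annotated pseudogenes. Of the members called on average, UQCR10, COX7B, COX7C and ATP5MC1 shared no exonic base with another gene, and COX7B, COX7C and ATP5MC1 have 1, 1 and 7 annotated pseudogenes. Over the 25 members without exonic overlap the median average fold change was −0.38.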

How the data were processed

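The deposited table holds 1 whole number per gene for each of the 6 libraries, treated here like expected counts (estimated counts), a unit inferred from the deposited values since neither labels nor header names it. Rounding changed nothing. The aligner, counter and filters were not given in the sources used here. Per the submitters' processing notes the builds were GRCm38 and mm10, both of mouse, but all 20263 identifiers are human, and the build behind the counts is unknown. Coordinates, lengths and overlaps are from GENCODE 29 (GRCh38), matched by identifier. The table had 0 unused columns.

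The software was R 4.3.3 with edgeR 4.0.16, DESeq2 1.42.0 and limma 3.58.1. Genes kept by filterByExpr (13769) were scaled by TMM and fitted with a mean per group (glmQLFit and glmQLFTest). Contrasts were the average of both siRNAs against siControl, each siRNA against siControl, and HMOX1si2 minus HMOX1si1, with Benjamini-Hochberg adjustment over all genes tested and a threshold of 0.05. The SE is the absolute log2 fold change over the square root of F. CPM uses TMM-scaled library sizes, and log2 CPM a prior count of 2. The fit was tested on simulated data.

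Groups and replicate numbers are from the sample titles. Nothing in the labels pairs the numbers. The text names HMOX1, members past the threshold in any contrast, the highest and lowest average fold change of each complex, the members that bind heme or an iron-sulfur cluster, MT-CYB, MT-CO1, and up to 4 called genes of each other list. Where another gene is named, the text says that it was picked with its values in view, or it stands with a count it makes up. The members and lists were chosen with earlier results of these data known. The alternatives were other scalings, no filter, DESeq2, a replicate block, only the groups compared, length corrections, a mitochondrial covariate, members without exonic overlap, and leaving out each library.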

Additional observations from a re-analysis of the deposited data

Results flagged for a closer look

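HMOX1 differed between the siRNAs, with HMOX1si2 minus HMOX1si1 at −1.10 on the log2 scale (edgeR adjusted p = 0.0284): both HMOX1si2 libraries lay below both HMOX1si1 libraries. TFAM differed by 0.89 (edgeR adjusted p = 0.0430), with both HMOX1si2 libraries above both HMOX1si1 libraries. KRT8 differed by 0.65 (edgeR adjusted p = 0.0264), at 3981 and 3772 CPM with HMOX1si1 and 5853 and 6295 with HMOX1si2, against 5799 and 6606 in siControl. The call of HMOX1 and that of KRT8 were lost in each of the 6 fits that left out 1 library (HMOX1 between −1.19 and −0.99, KRT8 between 0.59 and 0.70), and that of TFAM in all but the fit without HMOX1si2 replicate 1 (0.69 to 1.06). No member of complexes II to V was called in this comparison with edgeR without covariates or with DESeq2.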

How the results depend on the processing

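The members' median log2 fold change stayed below 0 on average and with each siRNA in the alternatives run. On average it was −0.26 with length correction, −0.26 with length correction with the replicate block and −0.17 by transcript length, and with HMOX1si1 it was −0.32, −0.32 and −0.24 in the same order. With HMOX1si2 it was −0.13 by transcript length. Without 1 library, medians ran from −0.47 to −0.31 on average, −0.62 to −0.41 for HMOX1si1, −0.45 to −0.19 for HMOX1si2 and 0.030 to 0.29 between the siRNAs. Counts past the threshold depended far more on the setting. In the order average, HMOX1si1, HMOX1si2, DESeq2 called 23, 25 and 5 members (2636, 2639 and 1874 genes in all, and 1406 between the siRNAs). The mitochondrial covariate gave 23, 20 and 9 members, 1 between the siRNAs (ATP5MC2), and 2388, 2165 and 1524 genes. Library totals as scaling gave 3, 4 and 0 members, and no filter 8 on average. Transcript length correction gave 3, 5 and 0, and length correction 0 with HMOX1si2. Only the groups compared gave 16 members with HMOX1si1 and 1 with HMOX1si2, and 179 genes with HMOX1si2 and 156 between the siRNAs. Members without exonic overlap included 1 called with HMOX1si2. Deviations of same-numbered libraries correlated at 0.00791 (siControl and HMOX1si1), 0.0273 (siControl and HMOX1si2) and −0.153 (HMOX1si1 and HMOX1si2) over 13769 genes. With 2 libraries a group, these values cannot decide whether the replicate numbers pair libraries. With the replicate block, edgeR called 0, 1 and 0 members (26, 26 and 9 at an unadjusted p under 0.05) and 255, 481, 45 and 87 genes, the last between the siRNAs. With length correction and the block there were 0, 0 and 0 members and 327, 475, 48 and 129 genes. A block with the HMOX1si2 numbers crossed, chosen after the data were seen, gave 1, 3 and 0 members, and 400 genes with HMOX1si2 and 312 between the siRNAs. Without 1 library, the members called numbered 0 to 16 on average, 0 to 15 for HMOX1si1, 0 to 1 for HMOX1si2 and 0 between them, and the genes 0 to 1594, 0 to 1492, 0 to 362 and 19 to 204 genes, with 0 on average without either siControl library (3459 and 2562 at an unadjusted p under 0.05). The cause of these shifts was not tested. On average, some small fold changes took the other sign. With length correction, alone and with the block, SDHB was at 0.060 and 0.061, CYC1 at 0.0005 and 0.0008, ATP5MC2 at 0.027 and 0.0255 and MT-CYB at 0.25 and 0.24. By transcript length SDHB was at 0.10, SDHC at 0.21, ATP5MC2 at 0.23 and MT-CYB at 0.16. ATP5MC2 was at 0.0091 with library totals, and MT-CO1 at −0.0062 with the crossed block. Leaving out 1 library gave −0.15 to 0.058 for SDHB, −0.23 to 0.015 for SDHC, −0.079 to 0.063 for ATP5MC2, −0.26 to 0.17 for MT-CYB and −0.17 to 0.18 for MT-CO1. KRT8 with HMOX1si2 was at 0.016 by transcript length and at −0.13 to 0.071 without 1 library. Over 72 single-gene results and 1192 refits, 811 kept sign and side of the threshold, 309 lost a call, 44 gained one and 28 took the other sign. With 2 libraries a group, precision is limited by the spread between libraries as each member had at least 816 counts in each library.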
